A study of Mus musculus with 10 samples.

Results

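The genes described here code for the cytosolic factors that start and elongate protein synthesis. They are the rows of the expression table whose symbol begins with Eif1 to Eif6, Eef1 or Eef2, without the Eif2ak kinases and without hyphenated pseudogene names, of which there were 6. This rule found 61 of the 26335 rows, and 59 of the 61 had a mean log2 CPM above 0 and were tested. CPM gives the reads of a gene relative to all reads of that library. The 2 members below that limit were Eif4ebp3, with at most 19 reads in a library, and Eif2c5, with at most 2 reads. Eif2c5 is an older symbol of the Argonaute type and does not name a translation factor. The factor genes Eef1a2 and Eif2s3y were not analysed here.

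In the textbook account of translation, eIF2 brings the initiator tRNA to the small ribosomal subunit. There eIF1, eIF1A, eIF3 and eIF5 act in scanning and in the choice of start codon. The eIF4 factors bind the cap of the mRNA and unwind its leader, and 4E-BP proteins repress initiation by holding eIF4E. Once the large subunit has joined, eEF1A delivers aminoacyl-tRNA, the eEF1B complex recharges eEF1A with GTP, and eEF2 moves the ribosome by a codon. Many of the elongation factor mRNAs, together with those of ribosomal proteins, are TOP mRNAs, which begin with a run of pyrimidines and are translated under the control of mTOR.

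RNA was sequenced from mSCLC-2405 cells in culture, a small cell lung cancer line of the mouse that came from a primary lung tumor of a genetically engineered mouse, induced by intratracheal Adeno-Cre. The control group of 5 libraries carried the vehicle DMSO, and the other 5 libraries were from cells with 250 μM stiripentol, an antiseizure drug that inhibits lactate dehydrogenase. Both groups were cultured for 48 h, share the engineered deletions of that mouse and stand for a single tumor line. The study asked how long-term stiripentol changes the respiration of tumor cells, and the translation factors were not among its listed genes.

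Control libraries held 22375625 to 65299372 reads and stiripentol libraries 55015760 to 60670901, and the tested member with fewest reads, Eif4e3, had 2376 reads over the 10 libraries. In each group the libraries formed 2 clusters, here called A (controls 4 and 5 with stiripentol 1 and 2) and B (controls 1 to 3 with stiripentol 3 to 5). The correlation across genes was 0.983 to 0.997 between libraries of the same group and cluster, and 0.920 to 0.939 between the clusters of a group. Clusters of the 2 groups were matched through the numbering of the table the authors printed. Between the groups, the correlation was 0.881 to 0.936 for matched clusters and 0.84 to 0.938 for unmatched ones. These ranges overlap, so they do not settle the matching. What sets the clusters apart is not given in the sources used here. Within-cluster changes of the called members therefore stand beside the pooled ones below. Controls 1 to 3 were also normalized apart from the other 7 libraries. The labels do not say whether libraries came from separate cultures, and p-values then measure the spread between these libraries, which may be technical. Of 10 markers of neuroendocrine small cell lung cancer, 7 were in the table and 2 were tested. The markers Insm1, Chgb and Dll3 were in the table but below the limit for testing, and had at most 10 reads in any library. The mesenchymal markers Vim and Fn1 were at 2090 to 4550 and 4620 to 9070 CPM. Markers that moved with stiripentol were Ncam1, Avil and Cd68, which were higher, and Krt8, Col1a2, Col3a1 and Pdgfrb, which were lower (limma, adjusted p under 0.05). The summed level was 93.5 to 120 CPM in control and 127 to 157 CPM in stiripentol libraries for the neuroendocrine list, 1.93 to 6.96 and 25.2 to 59.7 CPM for the 4 tuft cell markers, and 6.41 to 18.6 and 58.8 to 103 CPM for the immune markers. It was 2280 to 2600 and 1540 to 2140 CPM for the epithelial list, 8070 to 10600 and 7520 to 13700 CPM for the mesenchymal list and at most 1.07 CPM for the endothelial list. The part of these markers in the results below was not tested. In bulk RNA, fewer cells of a type and less RNA per cell cannot be told apart.

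With stiripentol, 17 of the 59 factor mRNAs rose and 3 fell (limma on log2 CPM, Benjamini-Hochberg adjusted p under 0.05). These are 28.8% and 5.08% of the members, against 13.6% higher and 14.1% lower of the 12306 genes tested. The rises lay mainly among the scanning factors eIF1 and eIF3, the eIF2 group and the elongation factor group, which includes the kinase gene Eef2k. The falls were those of Eif4a1, Eif4e2 and Eef1akmt1. The median log2 change was 0.24 over the members and -0.06 over all genes. The change was above 0 in 40 of the 59 members (67.8%) and in 46.4% of all genes. All 5 stiripentol libraries lay above all 5 controls for 13 members and below them for 5, where 13.0% and 14.3% of all genes did so. Together, the 61 members took 2.81% to 3.45% of the reads of control libraries and 3.16% to 4.84% of the reads of stiripentol libraries. The lowest stiripentol shares lay below that of control 4. Eef1a1 and Eef2, neither of them called, weigh most in these shares, with 7394006 and 2382832 reads over the 10 libraries.

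The groups of factors differed from each other in their counts. Of the 5 members named for eIF1 or eIF1A, 3 rose, with a median log2 change of 0.63 over the 5. In the eIF2 group, 2 of 5 rose and the median was 0.38, and in eIF2B, its exchange factor, 1 of 5 rose and the median was 0.04. Of the 14 eIF3 subunit genes, 6 rose and none fell, with a median of 0.32. The 14 tested eIF4 genes had 1 rise and 2 falls and a median of -0.21. Among eIF5, eIF5A, eIF5B and eIF6, 1 of 5 rose and the median was 0.16. Of the 7 genes grouped as elongation factors, 3 rose and none fell, with a median of 0.38. This group includes Eef2k, a called rise that codes for a kinase of eEF2, and Eef1e1, whose product belongs to the aminoacyl-tRNA synthetase complex. The 4 methyltransferases of elongation factors had 1 fall and no rise. Over the 10 libraries, the eIF4 group alone had a median below 0, as deposited and also under quantile normalization, median-of-ratios scaling and totals without the 10 genes with most reads. Within the clusters, the medians were 0.69 in A and 0.42 in B for eIF1 and eIF1A, 0.61 and 0.12 for eIF2, 0.46 and 0.07 for eIF2B, 0.64 and 0.23 for eIF3 and 0.42 and 0.25 for the elongation factors. They were -0.20 and -0.19 for eIF4, 0.31 and -0.18 for the group of eIF5, eIF5A, eIF5B and eIF6 and 0.15 and -0.16 for the methyltransferases, so in cluster B 3 groups had a median below 0.

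**Figure D1:**
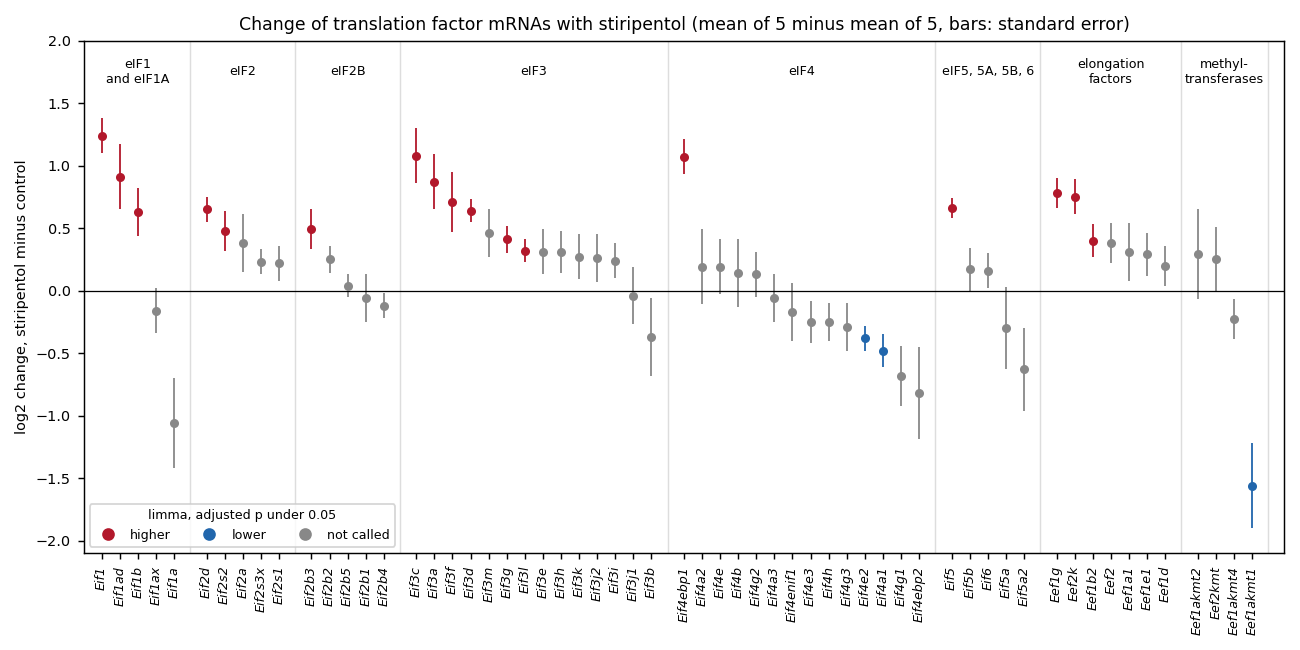
Log2 change of the 59 tested factor mRNAs (y axis, mean of 5 stiripentol minus mean of 5 control libraries), with genes on the x axis ordered within each group of factors. Bars are limma standard errors. The 17 called rises (red) reach 1.24 for Eif1, and the 3 called falls (blue) reach -1.56 for Eef1akmt1.

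The counts depend on treating libraries within a cluster as independent replicates. With 1 mean per group and cluster, 2 means against 2, 0 members and 0 of all 12306 genes passed the adjusted threshold in limma. In that fit 5 members (Eef1akmt1, Eif1, Eif3a, Eif3c and Eif4ebp1) had an unadjusted p under 0.05, as 9.07% of all genes did. Among the 7 libraries that share a normalization, 19 members were higher (10.1% of all genes) and 0 lower (9.87%). These are controls 4 and 5, both of cluster A, and stiripentol 1 to 5 of both clusters. They leave out every control of cluster B, so effects of normalization and of cluster on this count cannot be told apart. With a term for the cluster, 26 members were higher and 8 were lower, against 23.6% higher and 27.1% lower of all genes. Of the 59 members, 47 (79.7%) changed with the same sign in both clusters, against 63.0% of all genes. All 20 called members did so, but they were called on these same libraries, which favors such agreement. The median change of the members was 0.42 in cluster A and 0.07 in cluster B, where the medians over all genes were -0.25 and 0.08. The change differed between the clusters for 30 members (50.8%) against 63.3% of all genes (limma interaction, adjusted p under 0.05).

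**Figure D2:**
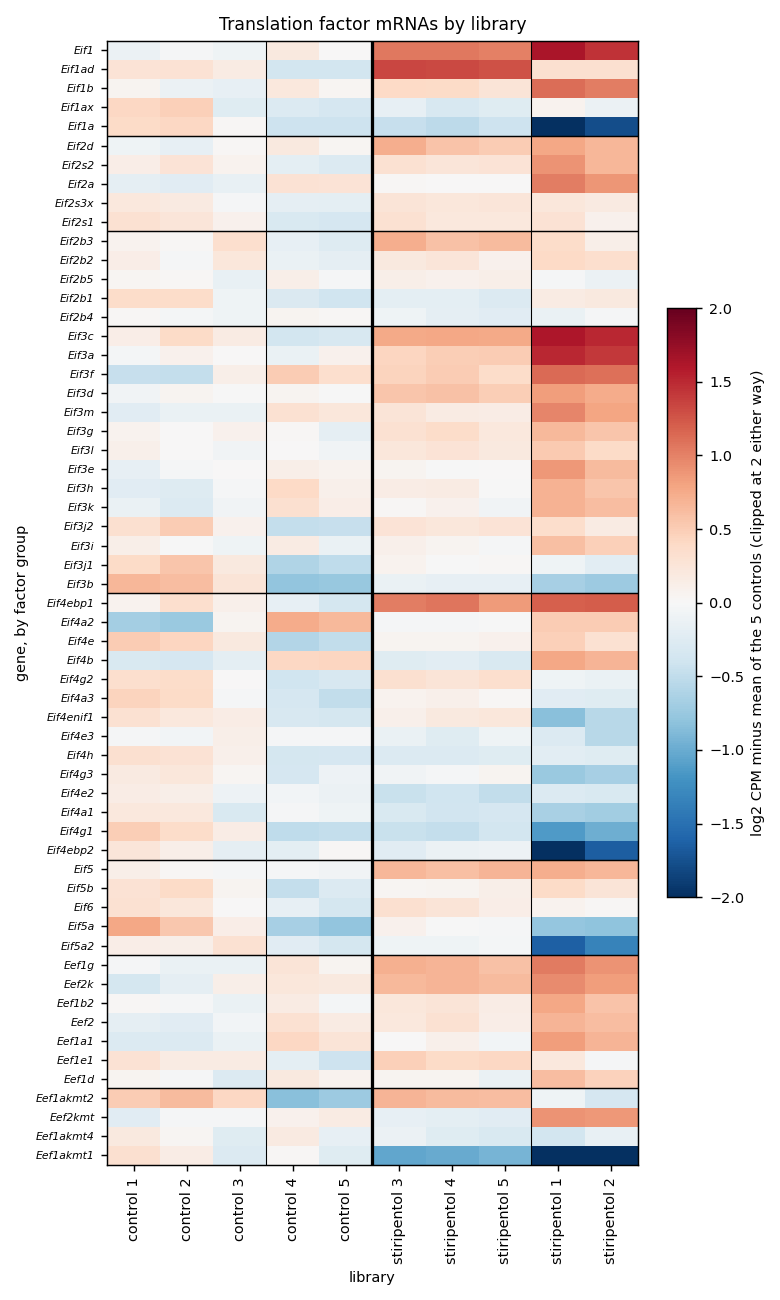
Each of the 59 factor mRNAs (rows, by group of factors) in each of the 10 libraries (columns), as log2 CPM minus the mean of the 5 controls. Thin vertical lines part the clusters of a group and the thick line parts the groups. Stiripentol 1 and 2 differ most from the controls for Eif1, Eif3c and Eif3a, which are higher there, and for Eif1a, Eif4ebp2 and Eef1akmt1, which are lower there.

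Eif1, whose product guards the choice of start codon, had the largest rise among the members. It was at 8.95, 9.03, 8.98, 9.26 and 9.06 log2 CPM in controls 1 to 5 and at 10.69, 10.50, 10.12, 10.11 and 10.07 in stiripentol libraries 1 to 5. All stiripentol libraries lay above all controls, and the gap between the groups was wider than the spread within either. The log2 change was 1.24 (SE 0.14, limma adjusted p = 0.000299), a 2.37-fold rise, and it was 1.43 in cluster A and 1.12 in cluster B. In GRCm38, the build that mm10 stands for, Eif1 lies at chr11:100319885-100322096 on the plus strand. A transcript annotated to Emd is 96.677% identical to it over 662 nucleotides and its pseudogene Gm10157 is 98.251% identical over 343. Reads could have been split among these, and all such copies in the table together held 20708 control reads against 145818 for Eif1.

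Eif1b, the near relative of Eif1, rose by 0.63 (SE 0.19, limma adjusted p = 0.0341), from 4.06 ± 0.15 to 4.70 ± 0.40 log2 CPM (SD, n = 5), with 0.95 in cluster A and 0.42 in cluster B (limma interaction, adjusted p = 0.00851). Eif1ad, a gene named for a domain like that of eIF1A, rose by 0.91 (SE 0.26, limma adjusted p = 0.0247), with 0.69 in cluster A and 1.07 in cluster B. Its exons overlap those of Banf1 on the other strand by 428 nucleotides, and Banf1 held 62446 reads against 36446 for Eif1ad. Whether the counting used strand is not given in the sources used here, so reads of the overlap cannot be assigned to either gene.

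The eIF1A genes themselves were not called. Eif1a was at 7.09, 7.11, 6.73, 6.28 and 6.28 log2 CPM in the controls and at 4.59, 4.92, 6.24, 6.18 and 6.28 in the stiripentol libraries. Stiripentol 1 and 2 were far below every other library, and stiripentol 5 and the lowest control printed the same value. The log2 change was -1.06 (SE 0.36, limma adjusted p = 0.0506), with -1.53 in cluster A and -0.74 in cluster B, and the clusters differed (limma interaction, adjusted p = 0.00259). The X-linked copy Eif1ax had a change of -0.16 (limma adjusted p = 0.516).

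In the eIF2 group, Eif2d and Eif2s2 rose. Eif2d codes for a factor that can deliver tRNA to the ribosome without GTP and acts on ribosomes after termination. It was at 5.96, 5.88, 6.07, 6.23 and 6.08 log2 CPM in controls and at 6.82, 6.71, 6.77, 6.61 and 6.54 in stiripentol libraries. All stiripentol libraries lay above all controls, and both clusters showed nearly the same step. Its log2 change was 0.65 (SE 0.10, limma adjusted p = 0.00166), 0.61 in cluster A and 0.67 in cluster B. The locus is chr1:131153181-131187658, and its exons overlap Rassf5 on the other strand by 78 nucleotides.

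Of the subunits of eIF2 itself, Eif2s2 (the beta subunit) rose by 0.48 (SE 0.16, limma adjusted p = 0.0475). Its change was 1.02 in cluster A and 0.11 in cluster B. Eif2s1 (the alpha subunit, whose phosphorylation slows initiation) had a change of 0.22 (limma adjusted p = 0.257), and Eif2s3x (the gamma subunit) had 0.23 (limma adjusted p = 0.118). Eif2a, which codes for a separate factor and not for the alpha subunit, had 0.38 (limma adjusted p = 0.233). All 5 genes of the group had a change above 0 in both clusters, while 63.0% of all genes had the same sign in both, in either direction. Among the 5 subunits of eIF2B, Eif2b3 rose by 0.49 (SE 0.16, limma adjusted p = 0.0472), with 0.46 in cluster A and 0.51 in cluster B. The catalytic subunit Eif2b5 had a change of 0.04 (limma adjusted p = 0.768), and Eif2b1, Eif2b2 and Eif2b4 had changes of -0.06, 0.25 and -0.12.

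The 14 eIF3 genes code for the subunits of the largest initiation factor, a scaffold on the small ribosomal subunit. Eif3c, which codes for a core subunit, was at 9.19, 9.43, 9.22, 8.69 and 8.73 log2 CPM in controls and at 10.66, 10.55, 9.80, 9.83 and 9.80 in stiripentol libraries. Controls 4 and 5 were the lowest of the controls, whereas their cluster partners stiripentol 1 and 2 were the highest of all libraries. The log2 change was 1.08 (SE 0.22, limma adjusted p = 0.00605), with 1.89 in cluster A and 0.53 in cluster B (limma interaction, adjusted p = 4.14e-06).

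Eif3a, the largest subunit, was at 9.35, 9.47, 9.40, 9.26 and 9.48 in controls and at 10.89, 10.81, 9.82, 9.88 and 9.90 in stiripentol libraries. The controls lay within a narrow range, and the stiripentol libraries split by cluster. Its log2 change was 0.87 (SE 0.22, limma adjusted p = 0.0170), with 1.48 in cluster A and 0.46 in cluster B. Eif3d, a subunit that can bind the cap, had controls that lay close together. It was at 8.36, 8.48, 8.42, 8.48 and 8.42 in controls and at 9.26, 9.17, 8.99, 9.01 and 8.92 in stiripentol libraries. No stiripentol library came near the controls, and the log2 change was 0.64 (SE 0.09, limma adjusted p = 0.000986), with 0.77 in cluster A and 0.55 in cluster B. Reads of the antisense transcript Gm17638 numbered 614 against 251428 for Eif3d.

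Eif3f rose by 0.71 (SE 0.24, limma adjusted p = 0.0454). Its values overlapped between the groups, since controls 4 and 5, at 8.89 and 8.72, reached the level of stiripentol 3 to 5, at 8.83, 8.90 and 8.76, and the change was 0.70 in cluster A and 0.72 in cluster B. Eif3g and Eif3l rose by 0.41 (limma adjusted p = 0.0192) and 0.32 (limma adjusted p = 0.0240). In clusters A and B, the change was 0.68 and 0.23 for Eif3g and 0.48 and 0.22 for Eif3l. The remaining 8 subunit genes did not pass, with changes from -0.37 for Eif3b to 0.46 for Eif3m (limma adjusted p = 0.383 and 0.0881). Eif3e had a change of 0.31 (limma adjusted p = 0.213) and Eif3h had 0.31 (limma adjusted p = 0.193). Eif3b stood apart within the controls, at 8.71, 8.66 and 8.30 in controls 1 to 3 and 7.26 and 7.30 in controls 4 and 5. Transcripts of Eif3j1 and Eif3j2 are 99.412% identical over 2379 nucleotides, so the counts of this pair are uncertain. Of the 14 genes, 11 had a change above 0 in both clusters, and none had a change below 0 in both. Over all genes, 63.0% had the same sign in both clusters, in either direction.

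The eIF4 group moved in both directions. Eif4ebp1, which codes for the eIF4E-binding repressor 4E-BP1, was at 7.67, 7.94, 7.70, 7.44 and 7.25 log2 CPM in controls and at 8.80, 8.81, 8.62, 8.67 and 8.45 in stiripentol libraries. All stiripentol libraries lay above all controls. The log2 change was 1.07 (SE 0.14, limma adjusted p = 0.000573), a 2.10-fold rise, and it was 1.46 in cluster A and 0.81 in cluster B. Its locus is chr8:27260329-27276674 on the plus strand. Its relative Eif4ebp2 was at 7.51, 7.39, 7.09, 7.07 and 7.29 in controls and at 5.26, 5.62, 7.04, 7.15 and 7.17 in stiripentol libraries. Only stiripentol 1 and 2 were far below the controls, and the change of -0.82 was not called (SE 0.37, limma adjusted p = 0.119). The change of Eif4ebp2 was -1.74 in cluster A and -0.22 in cluster B (limma interaction, adjusted p = 5.23e-05).

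Eif4a1, the helicase that unwinds mRNA leaders, was at 10.12, 10.12, 9.61, 9.88 and 9.83 in controls and at 9.26, 9.22, 9.61, 9.52 and 9.57 in stiripentol libraries. The groups came closest at 9.61, the value printed for both control 3 and stiripentol 3. Eif4a1 fell by 0.48 on the log2 scale (SE 0.13, limma adjusted p = 0.0221), with -0.62 in cluster A and -0.39 in cluster B. Its locus is chr11:69666936-69672423 on the minus strand. The pseudogene Eif4a-ps4 is 99.918% identical to it over 1218 nucleotides and held 8447 control and 8519 stiripentol reads, against 267495 and 202757 for Eif4a1. Eif4a2, the second helicase, had a change of 0.19 (limma adjusted p = 0.660), and it ran from 7.58 in control 2 to 9.07 in control 4.

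Eif4e2, which codes for the cap-binding repressor 4EHP, was at 6.75, 6.72, 6.50, 6.54 and 6.49 in controls and at 6.32, 6.29, 6.16, 6.20 and 6.11 in stiripentol libraries. The groups did not overlap, and Eif4e2 fell by 0.38 on the log2 scale (SE 0.10, limma adjusted p = 0.0151), with -0.21 in cluster A and -0.50 in cluster B. Under median-of-ratios scaling this fall was not called (limma adjusted p = 0.127). The cap-binding protein gene Eif4e had a change of 0.19 (limma adjusted p = 0.541), with 0.94 in cluster A and -0.31 in cluster B (limma interaction, adjusted p = 1.51e-05). Eif4g1, the scaffold that joins cap, helicase and eIF3, was at 9.76, 9.63, 9.42, 8.76 and 8.79 in controls and at 8.14, 8.30, 8.83, 8.80 and 8.90 in stiripentol libraries. Within each cluster the stiripentol libraries were the lower ones, but stiripentol 3 to 5 were as high as controls 4 and 5. Its change of -0.68 was not called (SE 0.24, limma adjusted p = 0.0539). The other scaffolds Eif4g2 and Eif4g3 had changes of 0.13 (limma adjusted p = 0.591) and -0.29 (limma adjusted p = 0.256), and Eif4b, a cofactor of the helicase, had 0.14 (limma adjusted p = 0.714).

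**Figure D3:**
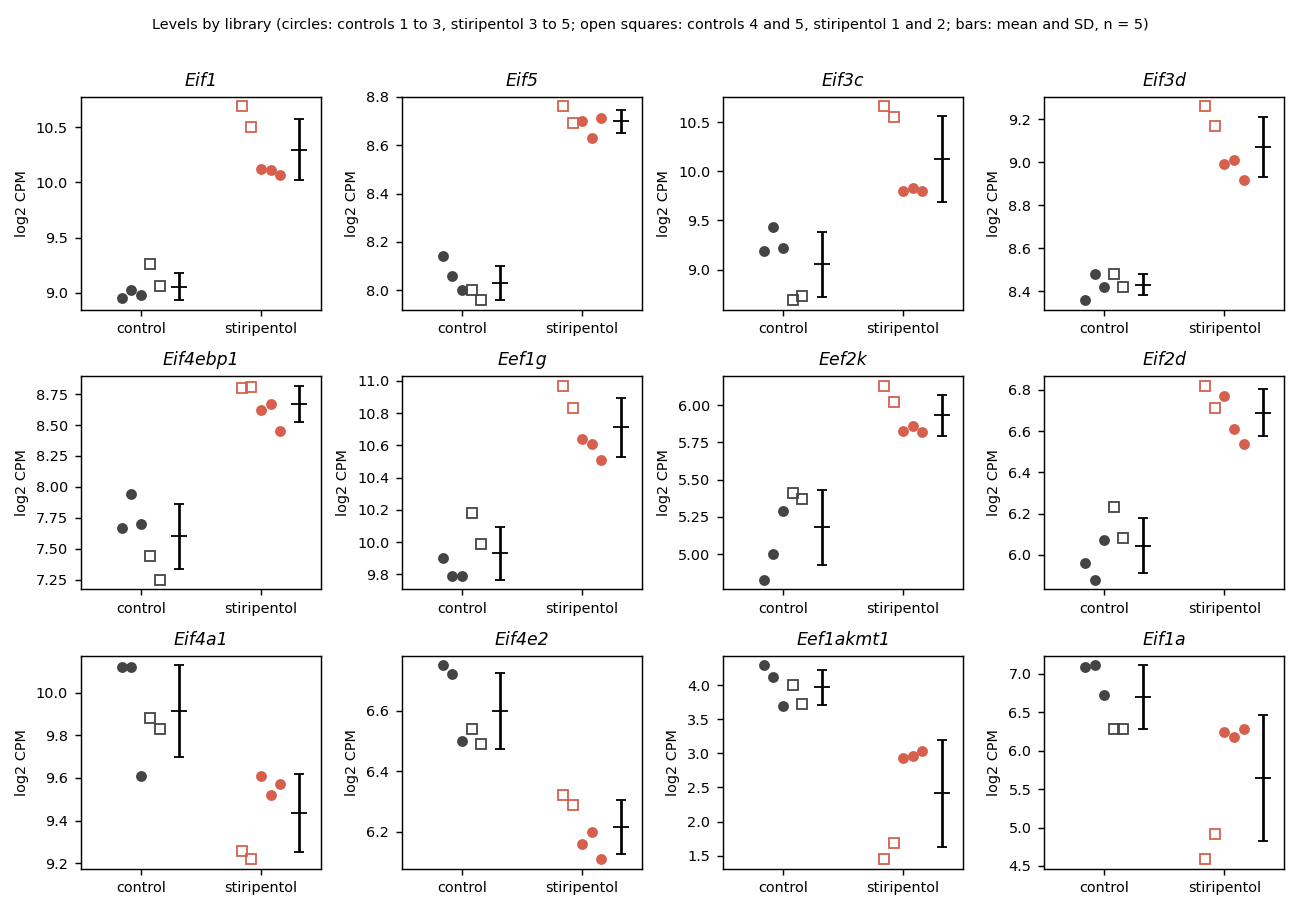
Log2 CPM of 12 factor mRNAs in each library (y axis, scaled per gene and not starting at 0), by group on the x axis. Circles are cluster B, open squares are cluster A, and bars show the mean and SD of 5 libraries. Eif5 shows little spread within the groups (SD 0.07 and 0.04), and Eef1akmt1 and Eif1a split by cluster within the stiripentol group.

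Among the late factors, Eif5, which codes for the protein that triggers GTP hydrolysis by eIF2 at the start codon, rose. It was at 8.14, 8.06, 8.00, 8.00 and 7.96 log2 CPM in controls and at 8.76, 8.69, 8.70, 8.63 and 8.71 in stiripentol libraries. The 5 values of each group lay close together and the groups were far apart. The log2 change was 0.66 (SE 0.08, limma adjusted p = 0.000349), a 1.59-fold rise, with 0.74 in cluster A and 0.61 in cluster B. The locus is chr12:111538016-111546752 on the plus strand. Eif5b, which joins the subunits, and Eif6, which holds the large subunit apart, had changes of 0.17 (limma adjusted p = 0.459) and 0.16 (limma adjusted p = 0.396). Eif5a, whose protein carries hypusine and helps peptide bonds to form, had a change of -0.30 (limma adjusted p = 0.510). It ran from 8.60 in control 5 to 10.16 in control 1, a wider range within the controls than the change between groups. Its relative Eif5a2 had a change of -0.63 (limma adjusted p = 0.170), with -1.19 in cluster A and -0.26 in cluster B.

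In the elongation factor group, Eef1g, Eef1b2 and the kinase gene Eef2k rose. Eef1g, which codes for the gamma subunit of the eEF1B exchange complex, was at 9.90, 9.79, 9.79, 10.18 and 9.99 log2 CPM in controls and at 10.97, 10.83, 10.64, 10.61 and 10.51 in stiripentol libraries. All stiripentol libraries lay above all controls, and the log2 change was 0.78 (SE 0.12, limma adjusted p = 0.00162), with 0.81 in cluster A and 0.76 in cluster B. Its locus is chr19:8967041-8978479. The copy Gm4366 is 99.627% identical over 1342 nucleotides and held 11715 control and 25196 stiripentol reads, against 266309 and 492582 for Eef1g. Eef1b2, another subunit of this complex, rose by 0.40 (SE 0.13, limma adjusted p = 0.0474), with 0.61 in cluster A and 0.25 in cluster B, and Eef1d had a change of 0.20 (limma adjusted p = 0.346). Eef1e1, whose product is part of the aminoacyl-tRNA synthetase complex, had a change of 0.29 (limma adjusted p = 0.221).

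Eef2k, the kinase that stops eEF2 by phosphorylation, was at 4.83, 5.00, 5.29, 5.41 and 5.37 in controls and at 6.13, 6.02, 5.83, 5.86 and 5.82 in stiripentol libraries. No values were shared between the groups, and the log2 change was 0.75 (SE 0.14, limma adjusted p = 0.00363), with 0.68 in cluster A and 0.80 in cluster B. Its locus is chr7:120842831-120907450. Its substrate Eef2 was at 11.64, 11.60, 11.77, 12.12 and 11.99 in controls and at 12.50, 12.43, 12.03, 12.12 and 11.96 in stiripentol libraries. The groups overlapped, and the change of 0.38 was not called (SE 0.16, limma adjusted p = 0.0907), although it was nearly the same in both clusters (0.41 and 0.37). Eef1a1, the gene with most reads in the table, was at 13.20, 13.20, 13.34, 13.90 and 13.74 in controls and at 14.31, 14.16, 13.48, 13.58 and 13.42 in stiripentol libraries. Cluster A was above cluster B in both groups, and the change was 0.31 (SE 0.23, limma adjusted p = 0.323).

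The set also holds 4 enzymes that methylate elongation factors. Eef1akmt1, a lysine methyltransferase of eEF1A, was at 4.29, 4.12, 3.69, 4.00 and 3.73 in controls and at 1.45, 1.68, 2.93, 2.96 and 3.04 in stiripentol libraries. All stiripentol libraries lay below all controls, and those of cluster A were the lowest. Eef1akmt1 fell by 1.56 on the log2 scale (SE 0.34, limma adjusted p = 0.00814), to 34.0% of control, with -2.30 in cluster A and -1.06 in cluster B (limma interaction, adjusted p = 0.000939). Its locus is chr14:57549597-57571612 on the minus strand. Eef1akmt2, Eef1akmt4 and Eef2kmt had changes of 0.29, -0.23 and 0.25, with adjusted p-values of 0.548, 0.293 and 0.498 (limma).

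**Figure D4:**
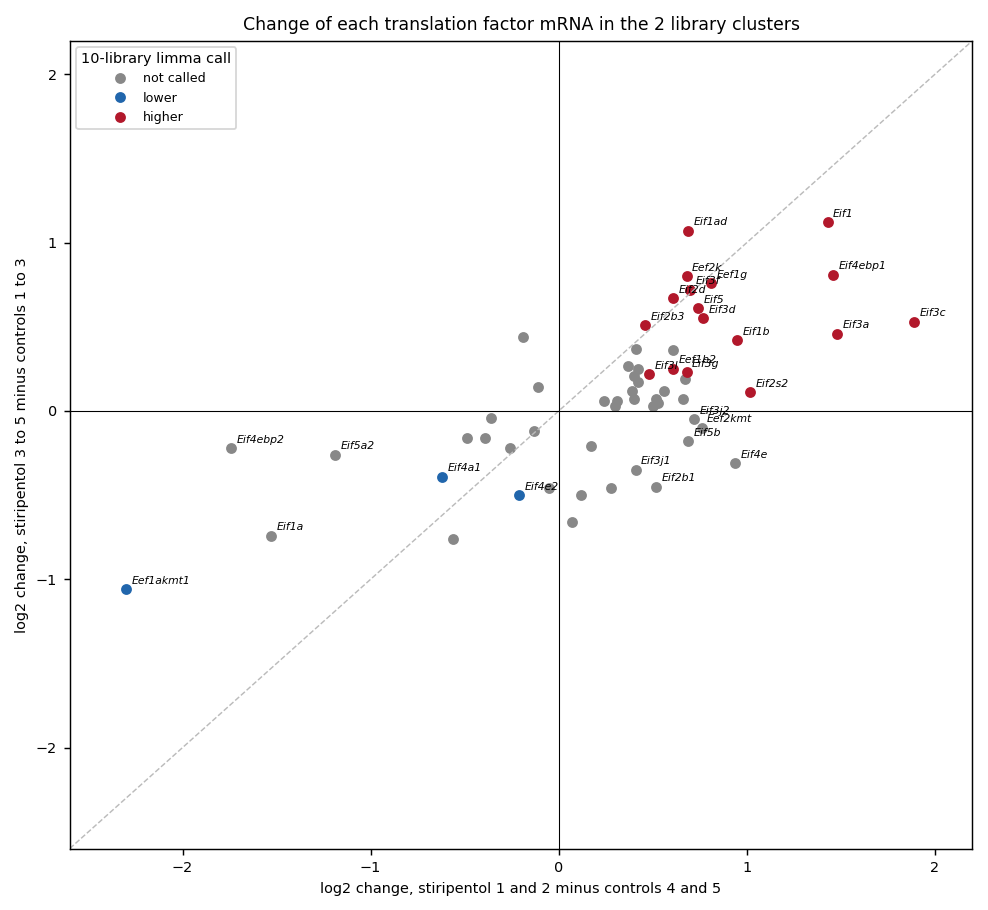
Log2 change of each of the 59 factor mRNAs in cluster A (x axis, stiripentol 1 and 2 minus controls 4 and 5) and cluster B (y axis, stiripentol 3 to 5 minus controls 1 to 3). The dashed line marks equal changes. All 20 members called on these same libraries changed with the same sign on both axes. Eif3c (1.89 and 0.53) and Eef1akmt1 (-2.30 and -1.06) lie far from the line.

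The mRNAs of 9 members are classical TOP mRNAs (Eef1a1, Eef1b2, Eef1d, Eef1g, Eef2, Eif3e, Eif3f, Eif3h and Eif4b). All 9 had a change above 0 in both clusters and in the pooled comparison, where 46.4% of all genes did. Their median was 0.31, and 3 of them, 33.3%, rose, against 13.6% of all genes. The share above 0 in both clusters was not computed for all genes, of which 63.0% had the same sign in both, in either direction. Over the other 50 tested members the median was 0.20 and 28.0% rose. Under quantile normalization, which shifted the median of all genes from -0.056 to 0.046, 7 of the 9 had a change above 0. To show what the annotated starts of these genes look like, promoter sequences of RefSeq (GRCm38.p6) were matched for 47 of the 61 members by symbol. A run of at least 8 C or T bases that starts with C and begins within 20 bases of the annotated start, on the sense strand, was found in 11 of the 47 members (23.4%) and in 14.5% of 27025 genes. The windows below run from 20 bases before the start to 20 after it, 5′ to 3′ on the sense strand, with such a run in capitals. They are those of the classical TOP genes with an entry, and of Eif3l and Eif3m, the eIF3 genes off that list that hold a run. The other 7 members with a run, Eef1akmt2, Eif2b2, Eif2b5, Eif2c5, Eif2s3x, Eif4e and Eif4enif1, are also off the list and are not shown.
Eef1a1 (chr9:78481705-78481744, minus): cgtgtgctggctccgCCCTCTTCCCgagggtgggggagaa
Eif3f (chr7:108934395-108934434, plus): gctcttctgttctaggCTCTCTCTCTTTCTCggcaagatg
Eef1b2 (chr1:63176811-63176850, plus): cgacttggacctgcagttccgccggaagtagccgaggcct
Eef2 (chr10:81176611-81176650, plus): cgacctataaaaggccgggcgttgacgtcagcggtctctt
Eif4b (chr15:102073753-102073792, plus): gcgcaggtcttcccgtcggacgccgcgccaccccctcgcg
Eif3l (chr15:79075203-79075242, plus): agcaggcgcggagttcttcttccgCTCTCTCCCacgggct
Eif3m (chr2:105017008-105017047, minus): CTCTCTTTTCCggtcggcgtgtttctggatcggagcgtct
The run was 10 bases in Eef1a1, 15 in Eif3f, 9 in Eif3l and 11 in Eif3m, and no run of this kind lay in the windows of Eef1b2, Eef2 and Eif4b. An annotated start can lie some bases from the start used in these cells, so a window without a run says only that these letters are not in it. The core of the C/EBP-ATF response element, TGATGNAA on either strand, was found in the promoters of 2 of the 47 members (4.26%, Eef2k and Eif2s3x) and of 4.51% of all genes.

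Differences between pairs of genes within a library do not depend on how libraries were scaled, and 5 pairs were tested. The exact permutation test was two-sided and allows no p below 0.00794 for 5 libraries against 5. Eif4e minus Eif4ebp1 was -0.17, -0.50, -0.49, -1.02 and -0.74 in controls and -1.32, -1.49, -1.56, -1.60 and -1.35 in stiripentol libraries. All stiripentol libraries lay below all controls, a change of the mRNA of the cap-binding protein relative to that of its repressor by -0.88 (exact permutation p = 0.00794, adjusted over the 5 pairs 0.0198). It was -0.52 in cluster A and -1.12 in cluster B.

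Eif1a minus Eif1ax was -0.06, -0.11, 0.21, -0.19 and -0.13 in controls and -2.23, -1.72, -0.34, -0.25 and -0.23 in stiripentol libraries. Again no values overlapped, but most of the change of -0.90 came from stiripentol 1 and 2 (exact permutation p = 0.00794, adjusted 0.0198). It was -1.81 in cluster A and -0.29 in cluster B, and without any single control the p-value did not pass 0.05, with changes of -0.93 to -0.83. Eif4g1 minus Eif4g3 changed by -0.38 (exact permutation p = 0.0317, adjusted 0.0528). Eif4a1 minus Eif4a2 differed by -0.66 between the groups (exact permutation p = 0.206, and 0.05 when permuted within clusters), with -0.42 in cluster A and -0.82 in cluster B. Eif5a minus Eif5a2 differed by 0.33 (exact permutation p = 0.246, and 0.283 within clusters), with 1.14 in cluster A and -0.20 in cluster B.

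**Figure D5:**
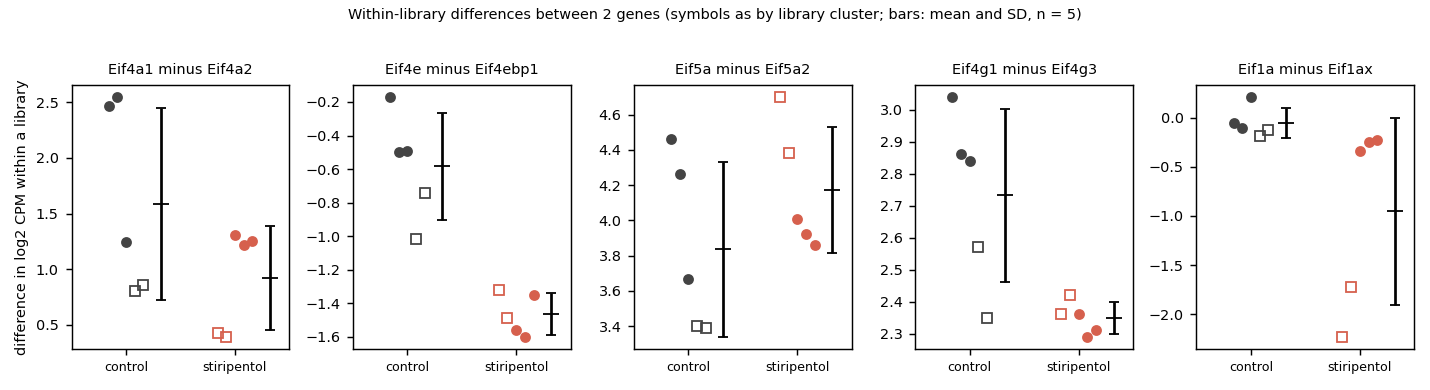
Difference in log2 CPM between the 2 genes of a pair within each library (y axis, scaled per pair and not starting at 0), by group on the x axis. Circles are cluster B, open squares are cluster A, and bars show the mean and SD of 5 libraries. Eif4e minus Eif4ebp1 is lower in all 5 stiripentol libraries than in any control, and Eif1a minus Eif1ax falls furthest in stiripentol 1 and 2.

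Genes that act with these factors were taken from a list of kinases, phosphatases, release and recycling factors and cap and poly(A) tail proteins. Of 49 tested, 11 rose (22.4%, against 13.6% of all genes) and 5 fell (10.2%, against 14.1%), and their median log2 change was -0.01. Ppp1r15a, which codes for the stress-induced subunit of the phosphatase that restores eIF2, had the largest rise of the list. Its log2 CPM went from 6.51 ± 0.40 to 8.37 ± 0.11 (SD, n = 5), a change of 1.86 (SE 0.17, limma adjusted p = 0.000123) with 1.60 in cluster A and 2.02 in cluster B. Of the 4 eIF2 kinases, Eif2ak4 (GCN2) fell by 0.48 (limma adjusted p = 0.0485), with -0.95 in cluster A and -0.16 in cluster B. Eif2ak2 (PKR) had a change of -1.23 that was not called (limma adjusted p = 0.0607), with -2.44 in cluster A and -0.43 in cluster B. Eif2ak3 (PERK) had 0.17 (limma adjusted p = 0.650), with opposite signs in cluster A (-0.77) and cluster B (0.80), and Eif2ak1 (HRI) had -0.16 (limma adjusted p = 0.260).

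Several of the other called genes also touch the eIF4 factors. Gigyf1, a partner of 4EHP, fell by 0.52, as did Cyfip1, which can hold eIF4E, by 0.57 and the helicase gene Ddx3x by 0.66. Pdcd4, an inhibitor of eIF4A, and Mknk1, a kinase of eIF4E, rose by 0.39 and 0.63. Of the genes around the poly(A) tail, Pabpc4 rose by 0.84, and Paip2 and Paip2b, inhibitors of the poly(A)-binding protein, rose by 0.52 and 0.49. Dhx29 (0.49), Mcts2 (0.87), Ncbp3 (0.53), Dhps (0.36), which makes the hypusine of eIF5A, and the ribosome rescue gene Hbs1l (0.75) were the other rises. Gspt2, a release factor gene, fell by 1.93. These genes, called on the same libraries, changed with the same sign in both clusters. Pabpc4 differed most between the clusters, with 1.56 in cluster A and 0.35 in cluster B (limma interaction, adjusted p = 4.6e-06). Calls that were lost without at least 1 library were those of Eif2ak4, Gspt2, Pabpc4, Pdcd4, Gigyf1, Dhps, Ddx3x, Dhx29 and Ncbp3.

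Of the 20 called members, 12 were also called when any 1 library was left out (limma). The call of Eif4a1 was lost without control 1, control 2 or stiripentol 2 (adjusted p = 0.0553 to 0.0575), and that of Eif3l without control 3 or stiripentol 2 (0.0542 to 0.0588). For Eif1ad, leaving out control 5 or any of stiripentol 3 to 5 ended the call (adjusted p = 0.0501 to 0.0532). Eif1b lost it without any of controls 1, 2, 3 and 5 and stiripentol 1 and 2 (adjusted p = 0.0527 to 0.0819), and Eif3f without any of controls 1 to 3 and stiripentol 1, 2 and 4 (adjusted p = 0.0564 to 0.105). Eif2s2 was called in 3 of the 10 fits, being lost without any of controls 1, 3, 4 and 5 and stiripentol 1 to 3 (adjusted p = 0.0548 to 0.108). Eef1b2 was called only without control 4 or stiripentol 5, and Eif2b3 only without control 3 or stiripentol 2, with adjusted p-values of up to 0.109 and 0.0980 in the other fits. The changes in all these fits kept their direction. The calls of Eif1, Eif2d, Eif3c, Eif3d, Eif4ebp1, Eif5, Eef1g and Eef2k held under every alternative other than the averaging within clusters. Those of Eef1akmt1, Eif3a, Eif3g and Eif4e2 held without any 1 library but not with libraries of 1 normalization set. Median-of-ratios scaling also ended the calls of Eif3g and Eif4e2.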

How the data were processed

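The 10 libraries of mSCLC-2405 cells, 5 control and 5 stiripentol, come in a single table that the authors deposited, which holds log2 CPM per gene and library with a small prior added before the logarithm. The authors' methods name GENAVi for normalization and Lexogen QuantSeq 3′ mRNA libraries, whereas the labels name TruSeq total RNA. The submitters' processing notes give mm10, and the aligner, annotation and strand setting are not given in the sources used here. The table also holds the authors' group means, fold ratios, p-values and q-values with their −log10, which were not used. Columns were matched to samples by name. Whole reads were recovered from 100% of the values (tolerance 0.05 reads), and depth describes counting error only.

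Groups were compared with limma 3.58.1 in R 4.3.3 (lmFit, eBayes with trend, no covariate). The fit used the log2 CPM of the 12306 genes with a mean above 0, with Benjamini-Hochberg adjustment over all of them. Pairs of genes were compared with exact permutation tests in Python. SE is the standard error of a log2 change. A rule named every called member, a core list of factors and the called genes among the partners. The members, lists and tests were chosen with earlier results of these data known. The clusters were also taken from those results. Positions are from GENCODE M21 on GRCm38, and near-identical transcripts (at least 95% over 100 nucleotides) were found with blastn 2.17.0+. Python 3.11.15, numpy 2.4.6, pandas 2.3.3 and matplotlib 3.10.9 were used. The scripts' models were tested on simulated data. Alternatives were a replicate block, leaving out each library, a cluster term, 1 mean per cluster, libraries of 1 normalization set, 3 other scalings, no filter, a minimum of 1, pseudocounts of 0.1 and 1 CPM, limma voom on recovered reads and robust limma. A block in the numbering the authors printed was added after seeing the data. Some items of the sources are not reported here.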

Additional observations from a re-analysis of the deposited data

Results flagged for a closer look

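Control 5 held 22375625 reads, far below the 63607057 reads of the median control. It was the only outlying library among 96 groups of 5 values tested, where chance gives about 4.8. Without control 5, 5 of the 20 called members were no longer called. Over all single libraries left out, this number ran from 2 (control 4) to 6 (control 1).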

How the results depend on the processing

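No called result changed direction under the alternatives run, but 7 of the named members that were not called did. With libraries of 1 normalization set, the log2 change went from -0.37 to 0.40 for Eif3b, from -0.30 to 0.43 for Eif5a, from 0.19 to -0.51 for Eif4a2, from 0.14 to -0.28 for Eif4b, from -0.16 to 0.15 for Eif1ax, from 0.31 to -0.03 for Eef1a1 and from 0.04 to -0.01 for Eif2b5. That subset leaves out every control of cluster B, so effects of normalization and of cluster cannot be told apart in it. Eif4b was also at -0.02 without stiripentol 1 and at -0.03 under quantile normalization. The replicate numbers of the sample titles did not pair the libraries, since deviations of same-numbered libraries correlated at -0.240 to 0.061. With these numbers as a replicate block, 11 members were higher and 2 lower, against 17 and 3 without it, of the partner genes 6 were higher and 2 lower, and of all genes 1020 were higher and 1062 lower. A block in the numbering the authors printed, which was added after seeing the data, gave 5 members lower and 20 higher. With it 8 partner genes were lower and 12 higher, and of all genes 2199 were lower and 2050 higher. A cluster term gave 8 members lower and 26 higher. It gave 11 partner genes lower and 15 higher, and of all genes 3336 lower and 2908 higher. One mean per group and cluster gave 0 members, 0 partner genes and 0 of all 12306 genes in either direction. With libraries of 1 normalization set, 0 members and 0 partner genes were lower, against 1215 of all genes. There 19 members, 14 partner genes and 1249 of all genes were higher. Median-of-ratios scaling gave 11 members higher (1783 of all genes), and quantile normalization 5 members lower (1786 of all genes). Limma voom gave 5 members and 8 partner genes lower (1864 of all genes). Without a filter, 3 partner genes were lower, with 1747 of all 26335 genes. Leaving out 1 library gave 2 to 4 members lower, 12 to 15 higher, 1 to 8 partner genes lower and 7 to 9 higher. Of all genes, 1171 to 1802 were then lower and 1218 to 1706 higher, against 1740 and 1674 with all 10 libraries. Eif4e minus Eif4ebp1 (-0.88), Eif1a minus Eif1ax (-0.90) and Eif4g1 minus Eif4g3 (-0.38) did not pass with the replicate block. There the groups were permuted within same-numbered pairs of libraries, and 5 pairs allow no exact permutation p below 0.0625. Eif4g1 minus Eif4g3 (-0.38) had an exact permutation p of 0.05 within clusters and ranged from -0.48 to -0.31 without single libraries, Eif1a minus Eif1ax from -1.08 to -0.58, Eif4a1 minus Eif4a2 from -0.86 (without control 4) to -0.42 (without control 2) and Eif5a minus Eif5a2 from 0.20 (without stiripentol 1) to 0.49 (without control 1), the Eif4a and Eif5a pairs not passing in any of these. The causes were not tested. Eef1a1 minus Eef1a2 was not run, as Eef1a2 was not analysed here. Depth limited only Eif4ebp3 and Eif2c5.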
